A study of Mus musculus with 2 samples.

Results

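Levels of 10 antiviral effector genes, the members described here, were compared between an immature and a mature library of mouse dendritic cells. The members were chosen by symbol, as genes that type I interferon is known to induce, but with earlier results of these data known. They were matched to the deposited rows through their Entrez Gene numbers. They are Ifit1, Ifit2, Ifit3, Isg15, Usp18, Herc6, Rsad2, Mx1, Mx2 and Bst2, which are 10 of the 18090 genes with a read in either library. All 10 had reads in both libraries. Dendritic cells take up antigen and present it to T cells. Both libraries were made from C57BL/6 bone marrow cells grown for 6 days in RPMI-1640 with 10 ng/ml GM-CSF and 1 ng/ml IL-4, and both cell populations were sorted on surface CD86 and Iab. The mature cells had in addition received lipopolysaccharide (LPS), a component of the bacterial cell wall, at 100 ng/ml for 24 h. The protocol names the cells given LPS only as sample 2; that was taken to mean the mature library. No LPS is named for the immature cells, nor whether they were cultured for the added time. The sources used here do not give the sort gates, the number of animals or any pooling.

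Each group holds 1 library, so the difference between the groups has no replicate check and was not tested. The immature library holds 7.56 M uniquely placed reads and the mature library 8.07 M. Levels are in RPKM, which is reads per kilobase of gene model and per 1000000 reads counted to genes. Ratios are of mature to immature RPKM and carry an exact 95% interval in parentheses. Those intervals, and the Poisson bars in the plots, cover counting error only: no molecular identifiers are named, so several reads can stem from 1 molecule, and the spread between cultures is unknown. Since these are bulk samples, fewer cells of a type and less RNA per cell cannot be told apart. All 12 genes of a list for conventional dendritic cells had reads in both libraries. Among them the class II genes H2-Aa (1159 RPKM immature, 1260.4 mature) and H2-Ab1 (1256 RPKM immature, 978 mature) were abundant, and Cd86 was 5.82-fold higher (5.29 to 6.40) in the mature library. Of the 12 genes, 4 were higher by 2-fold or more, 2 were lower and 6 lay within 2-fold. The lower genes were Itgax, which encodes CD11c, at 407 RPKM immature and 148 mature, and Dpp4, at a ratio of 0.409. Cd74, the most abundant gene of the list, stood at 5173 and 2910 RPKM. H2-Aa, H2-Ab1 and Cd86 encode surface molecules of the sort and are no finding.

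As background, LPS bound by Tlr4 signals through the adaptor Ticam1 to the factor Irf3, which switches on the interferon gene Ifnb1. Secreted type I interferon then binds its receptor, whose kinases Jak1 and Tyk2 act on latent transcription factors. These form the complex ISGF3, which contains Stat2 and Irf9 and binds interferon-stimulated response elements in the promoters of antiviral genes. The proteins of the members act at different steps of virus growth: IFIT proteins bind viral RNA or translation factors, Isg15 is a ubiquitin-like modifier, Rsad2 makes a chain-terminating nucleotide, Mx proteins are dynamin-like GTPases, and Bst2 tethers budding particles to the cell surface.

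Promoter sequence was read from RefSeq windows of assembly GRCm38.p6, each from 250 bases before to 50 bases after a gene start. Windows matched 7 of the 10 members by symbol; for Usp18, Mx1 and Mx2 there was no match. The core of the interferon-stimulated response element was searched as GAAANNGAAA on both strands, with overlapping matches counted. It was present for 5 of the 7 members, Ifit1, Ifit3, Isg15, Rsad2 and Bst2, and in 3.44% of 32851 windows of all genes. The stretches that hold the matches are shown because these members were all higher in the mature library. They read 5′ to 3′ on the strand of the gene, end upstream of the start, and have the matched core in capitals. The Ifit1 stretch is chr19:34640765-34640833 (plus strand), that of Ifit3 is chr19:34583353-34583436 (plus strand), that of Isg15 is chr4:156200855-156200916 (minus strand), that of Bst2 is chr8:71537567-71537622 (minus strand) and that of Rsad2 is chr12:26456543-26456592 (minus strand).
Ifit1: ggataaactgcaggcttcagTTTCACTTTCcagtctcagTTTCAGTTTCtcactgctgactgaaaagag
Ifit3: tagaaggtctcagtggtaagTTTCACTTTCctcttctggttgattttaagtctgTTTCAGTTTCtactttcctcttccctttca
Isg15: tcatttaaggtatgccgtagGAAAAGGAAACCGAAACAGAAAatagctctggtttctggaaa
Bst2: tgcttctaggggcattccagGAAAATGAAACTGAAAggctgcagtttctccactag
Rsad2: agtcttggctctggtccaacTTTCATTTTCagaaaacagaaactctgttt

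Isg15 carried 3 overlapping matches, Bst2 carried 2 that overlap, Ifit1 and Ifit3 carried 2 separate ones each, and Rsad2 carried 1. A longer form that contains the core, GAAANNGAAACT, had 2 matches at Ifit1 and 1 each at Ifit3 and Bst2, and occurred in 0.271% of all windows. The gamma-activated site TTCNNNGAA, which is its own reverse complement, had 1 match each at Bst2 and Ifit2 and occurred in 8.30% of all windows. No core match was found in the windows of Herc6 or of the 2 starts of Ifit2. A match describes the letters and was not tested as a site.

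Mature cells held 2-fold or more of the RNA of 9 of the 10 members, 0 were lower by that much, and Ifit2 lay within 2-fold. These calls use log2 of (mature RPKM + 1) over (immature RPKM + 1), which shrinks the difference for genes of low level. For comparison, 11547 genes reached 1 RPKM in either library, and of them 9.05% were higher by 2-fold or more and 11.3% lower. All 10 members passed that filter, but Ifit3 and Mx2 passed it only through the mature library, where they are high. Of the other 8 members, 7 were at least 2-fold higher. The median log2 fold of the members was 1.42, beside 0.026 over all compared genes. The whole counting interval of the ratio lay above 2 for 8 members and for 7.23% of all compared genes. The exceptions were Bst2 and Ifit2. Bst2 lay just inside the 2-fold threshold at a log2 fold of 1.04, and Ifit2 was the only member outside it, at 0.26.

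**Figure D1:**
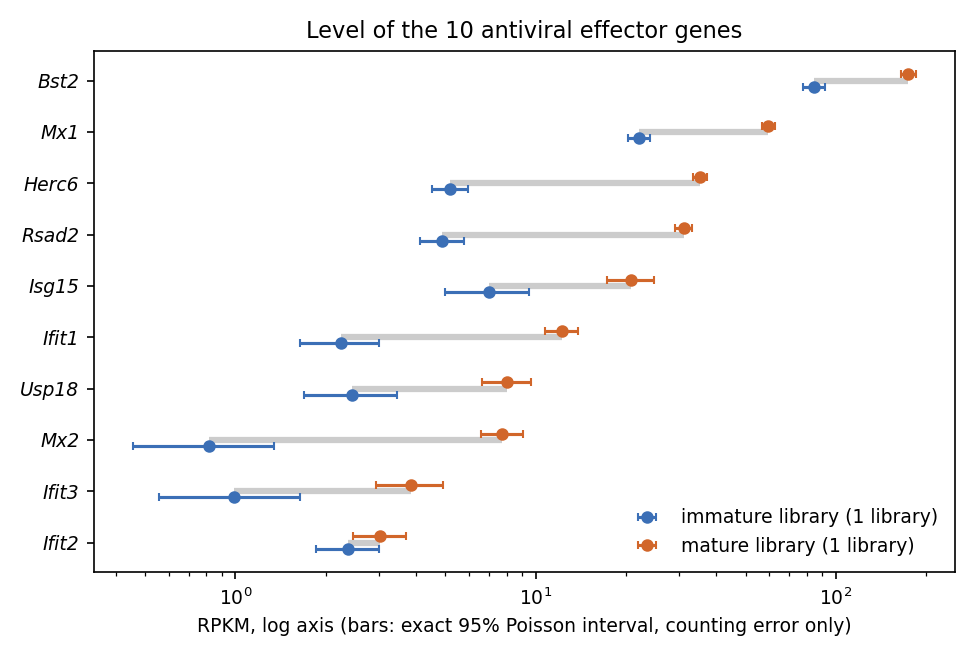
RPKM of each member (log axis) in the immature library (blue) and the mature library (orange), 1 library each; bars are exact 95% Poisson intervals of the reads and grey lines join the 2 values. Bst2 is the most abundant member in both libraries, and the bars of the 2 libraries overlap for Ifit2 and for no other member.

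The members differed widely in level. Their levels summed to 132 RPKM before maturation and 356 RPKM after it, of which Bst2 took 63.7% and 49%. In the immature library the order of RPKM was Bst2, Mx1, Isg15, Herc6, Rsad2, Usp18, Ifit2, Ifit1, Ifit3 and Mx2. Within it, the steps from Isg15 to Herc6 and from Herc6 to Rsad2 were within counting error, as were those from Usp18 to Ifit2, from Ifit2 to Ifit1 and from Ifit3 to Mx2. The other steps were larger than counting error. In the mature library the order was Bst2, Mx1, Herc6, Rsad2, Isg15, Ifit1, Usp18, Mx2, Ifit3 and Ifit2. There, Usp18 did not differ from Mx2 beyond counting error (level ratio 1.03, 0.804 to 1.33), nor Ifit3 from Ifit2 (1.26, 0.903 to 1.76). Herc6 and Rsad2 moved above Isg15, Ifit1 moved above Usp18, and Ifit2 became the lowest member.

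Among all genes compared, the folds of 8 members stood at percentile 94.6 or above, and Bst2 ranked 954th and Ifit2 4259th of 11547. Herc6 had the highest log2 fold of the members, 2.55, at rank 95. Rsad2 followed at 2.45 and rank 111, Mx2 at 2.27 and rank 136, and Ifit1 at 2.02 and rank 191. At a threshold of 4-fold these 4 members were called, beside 197 of the 11547 genes that were higher by that much.

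**Figure D2:**
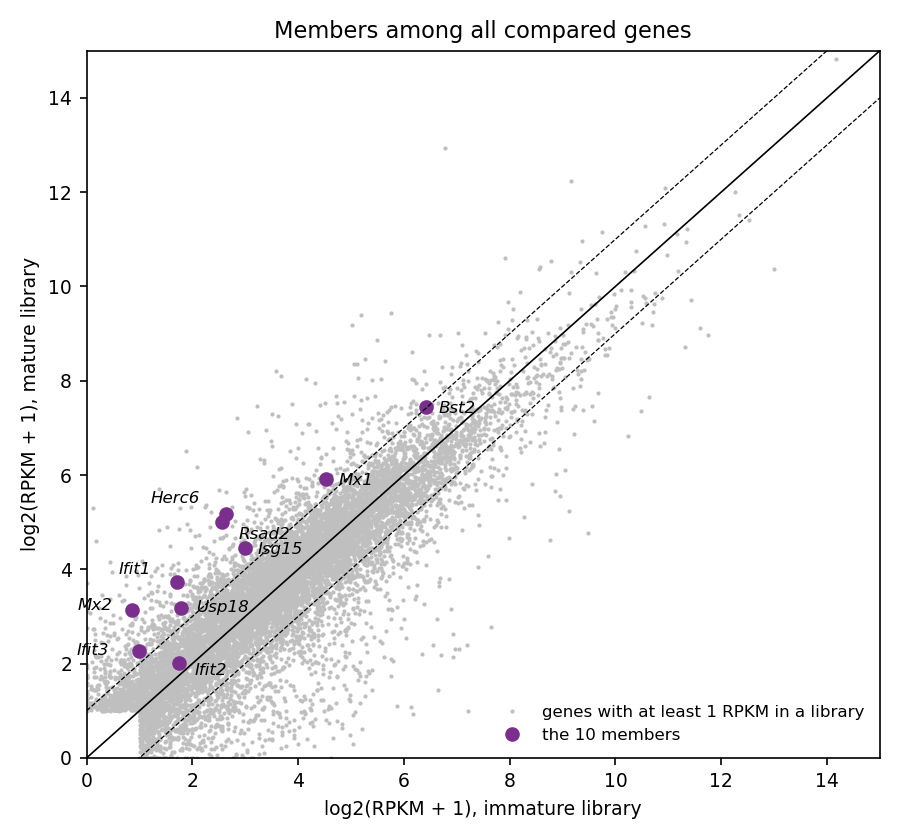
log2(RPKM + 1) in the mature library against the immature library for the 11547 compared genes (grey) and the 10 members (purple); the solid line marks equal values and the dashed lines a 2-fold difference. All members but Ifit2 lie on or above the upper dashed line, with Bst2 close to it.

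The IFIT genes lie next to each other on chromosome 19 and did not move together. IFIT proteins are built of tetratricopeptide repeats, and Ifit1 binds viral RNA with an incomplete cap. Ifit1 (Entrez Gene 15957) had 45 immature and 260 mature reads, or 2.26 and 12.2 RPKM. Its ratio was 5.41 (3.93 to 7.60). Ifit3 (15959) had 15 and 62 reads, or 0.993 and 3.84 RPKM, and a ratio of 3.87 (2.18 to 7.33). Ifit2 (15958), which limits the growth of several viruses in the nervous system, had 71 and 97 reads, or 2.38 and 3.04 RPKM. Its ratio of 1.28 (0.933 to 1.76) includes no difference. Ifit2 therefore had the most reads of the 3 genes in the immature library and a lower count than Ifit1 in the mature library.

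The fold of Ifit1 was 4.23 times that of Ifit2 (exact interval 2.66 to 6.74), and the fold of Ifit3 was 3.03 times that of Ifit2 (1.54 to 6.18). Ifit1 and Ifit3 did not differ in fold beyond counting error (1.40, 0.678 to 2.75). The other 3 genes of the cluster, Ifit3b, Ifit1bl1 and Ifit1bl2, were below 1 RPKM in both libraries. Ifit3b had 3 reads in each library, Ifit1bl1 had 5 and 0, and Ifit1bl2 had 14 and 7. The promoter windows of Ifit1 and of the first start of Ifit1bl2 face in opposite directions and share 245 bases. The Ifit1 stretch printed above is therefore also a stretch of the Ifit1bl2 window, on the other strand, with the same pair of core matches. The window of Ifit3b held the same stretch as the one printed for Ifit3, with 2 core matches. Each of the 2 starts of Ifit1bl1 had 1 core match. The core was thus also present at genes of the cluster that were not called higher. The ratio of Ifit1bl2 was 0.468 (0.160 to 1.24), and the fold of Ifit1 was 11.6 times that of Ifit1bl2 (4.05 to 35.4).

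Because the deposited counts hold only uniquely placed reads, sequence that members share with other genes bears on their levels. Each gene with a single read was covered over 49 bases in 99.7% of cases, which gives the read length. Of the 49-base positions along the longest protein-coding GENCODE transcript of Ifit3, 51.7% also occur in Ifit3b. The share was 7.25% for Ifit1, mostly in Ifit1bl2, and 0% for Ifit2. The level of Ifit3 is thus uncertain and may be too low.

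The ISG15 system attaches the modifier to proteins in a chain of enzymes like that of ubiquitin. Isg15 (100038882), the modifier itself, had 40 and 127 reads, or 7.0 and 20.8 RPKM, a ratio of 2.97 (2.07 to 4.36). Herc6 (67138), the main mouse ligase for Isg15, had 208 and 1510 reads, or 5.18 and 35.2 RPKM. Its ratio was 6.80 (5.88 to 7.90). Usp18 (24110), the protease that removes Isg15 and also blocks signalling at the interferon receptor, had 33 and 115 reads, or 2.45 and 8.01 RPKM, a ratio of 3.26 (2.20 to 4.97). The fold of Herc6 was 2.29 times that of Isg15 (1.52 to 3.39) and 2.08 times that of Usp18 (1.33 to 3.18). The folds of Usp18 and Isg15 did not differ beyond counting error (1.10, 0.628 to 1.93).

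The other enzymes of the chain changed less. Uba7, the activating enzyme, stood at 11.6 and 16.5 RPKM, a ratio of 1.42 (1.21 to 1.65). Ube2l6, the conjugating enzyme, stood at 24.0 and 43.5 RPKM, a ratio of 1.81 (1.56 to 2.12). Trim25, a ligase that also modifies the RNA sensor RIG-I, stood at 39.0 and 69.7 RPKM, a ratio of 1.79 (1.68 to 1.90). Of the 6 genes of the list, the 3 members were at least 2-fold higher, and these 3 were within 2-fold. In the immature library all 3 were more abundant than Isg15, Herc6 and Usp18. In the mature library Herc6 exceeded Uba7, and Isg15 did too.

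Rsad2 (58185), which encodes viperin, had 140 and 951 reads, or 4.89 and 31.1 RPKM. Its ratio was 6.36 (5.32 to 7.65), and its fold did not differ from that of Herc6 beyond counting error (0.936 times, 0.740 to 1.19). Cmpk2, the nucleotide kinase gene next to Rsad2 on chromosome 12, makes the nucleotide that viperin converts. It is named here after its value was seen. Cmpk2 had 83 and 93 reads, or 3.41 and 3.58 RPKM, a ratio of 1.05 (0.772 to 1.43). The fold of Rsad2 was 6.06 times that of Cmpk2 (4.22 to 8.68). Neither gene shares a 49-base position with transcripts of other genes. The core of the response element had 1 match in the window of Rsad2 and 0 in that of Cmpk2.

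Mx1 (17857) and Mx2 (17858) are neighbouring genes, and both are classed as transcribed pseudogenes in the RefSeq table of C57BL/6J, a substrain of the strain used here. It is known that most laboratory strains carry Mx genes that encode no intact protein, and the values here measure RNA. Mx1 had 537 and 1545 reads, or 22.1 and 59.5 RPKM, a ratio of 2.70 (2.44 to 2.98). Mx2 had 15 and 152 reads, or 0.817 and 7.75 RPKM, a ratio of 9.49 (5.58 to 17.4). Mx2 had the highest plain ratio of the members and Mx1 one of the lowest. The fold of Mx2 was 3.52 times that of Mx1 (2.05 to 6.5), while Mx1 remained the more abundant gene in the mature library. Positions shared between them made up 4.88% of the Mx1 and 6.88% of the Mx2 transcript. Of 7 other genes of dynamin-like GTPases, 4 reached 1 RPKM, and all 4 were within 2-fold: Dnm1l, of mitochondrial fission, at a ratio of 1.60 (1.48 to 1.73), Dnm2, of endocytosis, at 1.13 (1.08 to 1.19), and the mitochondrial fusion genes Mfn1 at 1.00 (0.877 to 1.14) and Mfn2 at 0.828 (0.631 to 1.08). Dnm1, Dnm3 and Opa1 were below 1 RPKM in both libraries. Dnm1 had 2 and 13 reads, a ratio of 6.09 (1.38 to 55.6), and Dnm3 had 1 and 11 reads, a ratio of 10.3 (1.5 to 444), so both were higher beyond counting error on few reads. Opa1 had 27 and 30 reads.

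Bst2 (69550), which encodes tetherin, had 553 and 1217 reads, or 84.4 and 174 RPKM. Its ratio was 2.06 (1.86 to 2.28), so its counting interval spans 2, and with edgeR's TMM factors, at a ratio of 2.01, it was no longer called. The fold of Bst2 was 0.765 times that of Mx1 (0.663 to 0.883). Bst2 is also a surface marker of plasmacytoid dendritic cells in unstimulated mice. Of 10 markers of that cell type, 1 was at 0 immature and 3 were at 0 mature, and the defining receptor gene Siglech had 1 and 2 reads. The summed level of the 10 markers was 27.9 and 40.3 RPKM, and of the 5 that were compared 1 was higher and 1 lower. Most of that summed level came from Tcf4, at 11.9 and 16.3 RPKM, and Runx2, at 7.94 and 17.1 RPKM, which encode transcription factors of other cells as well. The part of plasmacytoid cells in the Bst2 ratio was not tested. None of 5 genes listed as possible partners of Bst2 differed by 2-fold. Whether the product of Lilrb4a binds Bst2 in mice was not checked. They were the receptor gene Lilrb4a (ratio 0.657, 0.638 to 0.677), the clathrin gene Cltc (1.01, 0.980 to 1.05), and the adaptor genes Ap1m1 (0.904, 0.806 to 1.01), Ap2m1 (1.24, 1.19 to 1.30) and Ap2a1 (0.815, 0.742 to 0.894).

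**Figure D3:**
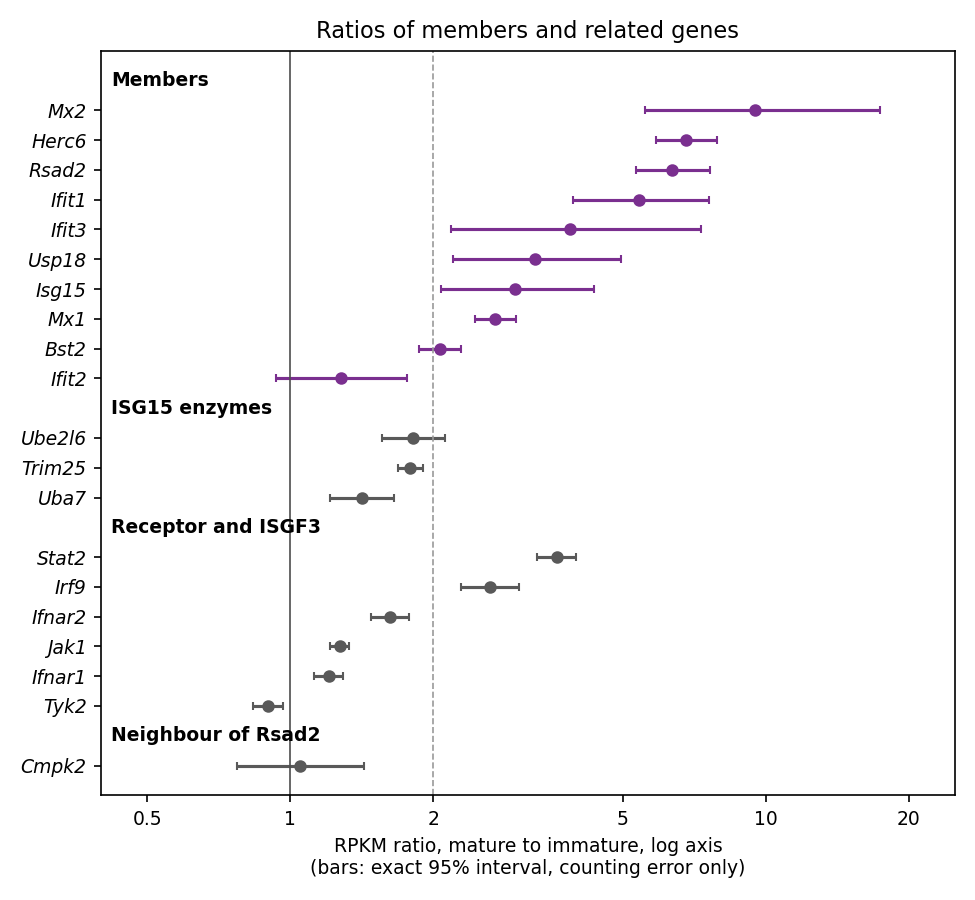
Mature to immature RPKM ratio (log axis) of the members (purple) and of related genes (grey), with exact 95% counting intervals; the solid line marks 1 and the dashed line 2. Mx2, Herc6, Rsad2 and Ifit1 lie farthest to the right, Ifit2 and Cmpk2 have intervals that include 1, and Stat2 and Irf9 lie above 2.

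The genes that act before the members in the pathway were divided by role. Of the interferon ligands, Ifnb1 had 1 immature and 0 mature reads, and 0 reads allow up to 0.483 RPKM. Ifnk had 2 and 1 reads, and the other 16 ligand genes, which include the alpha interferons, had 0 in both. The alpha genes are close copies of each other, so reads from them can lack a unique place. Among genes of the receptor, its kinases and ISGF3, Stat2 and Irf9 were at least 2-fold higher, and the receptor chains and kinases were within 2-fold. Stat2 stood at 16.7 and 60.7 RPKM, a ratio of 3.63 (3.31 to 3.99). Irf9 stood at 14.3 and 37.7 RPKM, a ratio of 2.63 (2.29 to 3.03). The receptor chain genes Ifnar1 and Ifnar2 had ratios of 1.20 (1.12 to 1.29) and 1.62 (1.48 to 1.78), and the kinase genes Jak1 and Tyk2 had 1.27 (1.21 to 1.33) and 0.898 (0.834 to 0.966).

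Of 8 genes that induce interferon transcription, Irf7 and Ticam1 were at least 2-fold higher and 6 were within 2-fold. Irf7, which amplifies the interferon response, stood at 7.30 and 119 RPKM. Its ratio of 16.3 (13.3 to 20.1) was above that of any member, though its interval overlaps that of Mx2 (5.58 to 17.4). Ticam1 had a ratio of 3.90 (3.35 to 4.56). The kinase genes Tbk1 and Ikbke had 1.40 (1.29 to 1.52) and 0.693 (0.647 to 0.742), and Irf3 had 1.04 (0.885 to 1.23). Irf1 had 1.10 (1.00 to 1.21), and the adaptor genes Ticam2 and Traf3 had 1.69 (1.45 to 1.98) and 1.72 (1.54 to 1.91).

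Among 46 other antiviral effectors, 44 reached 1 RPKM, 12 of these were at least 2-fold higher, 1 was lower and 31 were within 2-fold. Their median log2 fold was 0.59, against 1.42 for the members, and their folds ranged from -1.15 to 2.46. The highest were the helicase gene Helz2, at 11.8 and 69.6 RPKM with a ratio of 5.89 (5.49 to 6.33), Rtp4 at 4.75 (3.44 to 6.69), Xaf1 at 4.72 (3.47 to 6.53) and Ifi205 at 6.56 (3.24 to 15). The lower gene was Slfn9, with 52 and 8 reads. Other genes that interferon commonly induces had ratios near 1: Eif2ak2, which encodes the kinase PKR, and Ifi35, both named after their values were seen, had ratios of 0.966 (0.870 to 1.07) and 0.927 (0.783 to 1.10).

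The genes whose pair of levels lay nearest to the medians of the members, 3.51 RPKM immature and 16.0 RPKM mature, were sought among 6600 other named genes that reached 10 RPKM in either library. The measure was Euclidean distance between log2(RPKM + 1) values over the 2 libraries. They were Tspan33 at a distance of 0.078, Tnfrsf11a at 0.092, Azin2 at 0.112, Cbx7 at 0.116 and Zeb1 at 0.151. Their ratios ran from 4.04 for Zeb1 to 5.03 for Azin2. Likeness over 2 libraries says only that these levels are close.

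Markers of other cells differed between the libraries beside the members. The summed level of 11 neutrophil genes was 2809 and 935 RPKM, with 9 of 11 at least 2-fold lower in the mature library. That of 11 macrophage and monocyte genes was 644 and 297 RPKM, with 6 of the 10 compared at least 2-fold lower. Among the most abundant of these lists were Ngp, a granule protein gene, at 1204 and 113 RPKM, and Csf1r, a growth factor receptor gene, at 280 and 141 RPKM. The neutrophil gene Mmp8, at 1025 and 770 RPKM, was within 2-fold and made up most of the mature neutrophil sum. Adgre1, at 86.2 and 114 RPKM, was the only compared macrophage and monocyte gene with a log2 fold above 0. Genes of B and plasma cells summed to 10.2 and 6.46 RPKM, with 2 and 5 of 10 at 0, and genes of T and NK cells to 6.43 and 10.2 RPKM, with 1 of 11 at 0 in each. Erythroid genes summed to 0.311 and 0.211 RPKM, with 5 of 8 at 0 in each, globin genes among them. A gene without a row in either library may be missing from the annotation, which is not given. Such a 0 need not mean that RNA was absent. The part of these other cell types in the ratios of the members was not tested.

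Reads covered the members unevenly. If reads of 49 bases were placed at random along the gene model, 115 reads would cover 96.0% of Usp18 in the mature library, while the deposited coverage was 31.5%. In the immature library Usp18 was covered over 26.7%, against 60.2% at random placement. There, 126 of 811 genes of like depth (15.5%) were covered less, and their median was 46.2%. Of 1304 genes within 1.25 times of its read depth in the mature library, 52 (3.99%) were covered less. The median coverage of those genes was 77.7%, so real libraries fall short of random placement in general. The share of Usp18 positions found in transcripts of other genes was 4.53%. Coverage of Usp18 was thus low for its depth mainly in the mature library, and its level there is uncertain.

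Ifit3 was covered over 27.4% and 40.3% of its length, against 31.1% and 78.6% at random placement. Ifit2, with no shared position, was covered over 47.9% and 47.8%, close values from 71 and 97 reads. Herc6 was covered over 55.9% and 81.5%, below the medians of 66.2% and 92.8% for genes of like depth. Of its positions, 23.9% occur in the predicted gene Gm45193. Transcripts were compared without their genome position. Where genes overlap at the same place, reads can still place uniquely, so this share cannot show that reads of Herc6 were lost. Mx1 reached 75.7% and Bst2 82.8% in the mature library, below the medians of 94.1% and 96.3% for genes of like depth. Rsad2 and Ifit1 were the most fully covered members there, at 95.8% and 89.4%. Mx2 reached 80.8% and Isg15 76.8%.

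**Figure D4:**
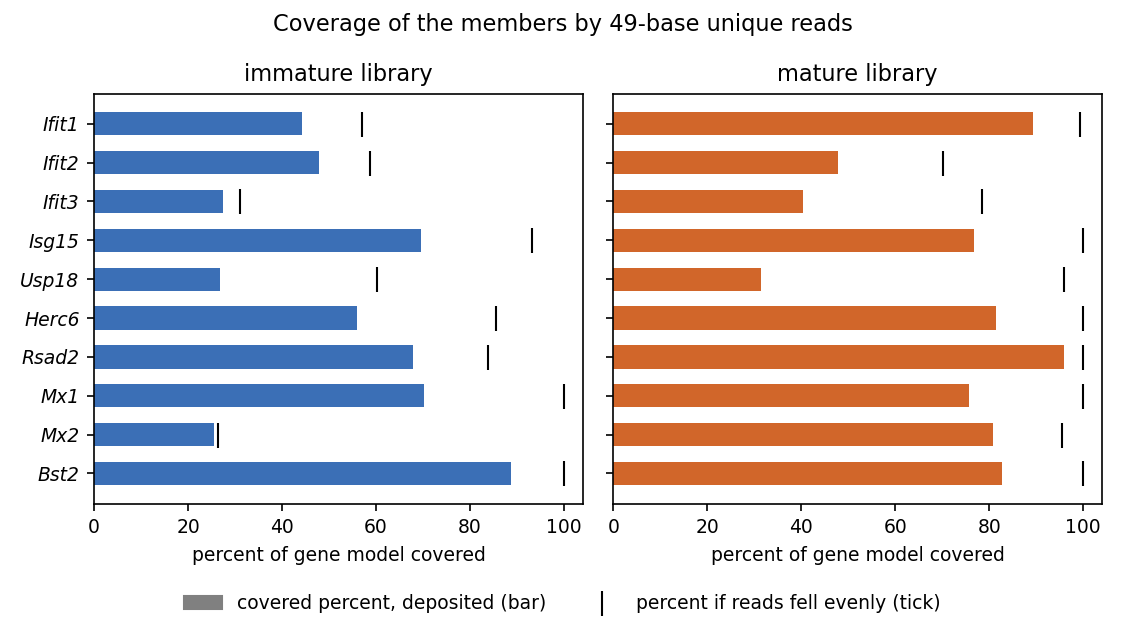
Percent of each member's gene model covered by reads (bars) in the immature library (left) and the mature library (right), and the percent that the same number of reads would cover if placed evenly at random along the model (black ticks). Usp18 and Ifit3 fall farthest below their ticks in the mature library, at 31.5% and 40.3% covered.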

How the data were processed

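RNA of 1 immature and 1 mature library was sequenced; groups come from the developmental stage in the labels. Each deposited file gives, per Entrez Gene number, an unnormalised count of uniquely placed reads (per the file headers), a model length, the percent of that length with reads, and RPKM. The deposited RPKM values equal reads per kilobase and per 1000000 counted reads within a relative deviation of 1.07e-07. The deposited coverage percent was used only for the coverage comparison. The submitters' processing notes name the build mm8. The sources used here do not give the aligner, counter, strandedness or annotation. Without strand a gene and an antisense partner cannot be told apart. Other assemblies served only for names, neighbours and printed sequence.

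The members and lists were chosen with earlier results of these data known. A gene absent from a file was taken as 0 reads, which allows up to 3. One absent from both libraries may also be missing from the annotation. Symbols came from RefSeq of GRCm38.p6 for 16220 of 18090 IDs. Genes that reached 1 RPKM in either library were compared with a pseudocount of 1 RPKM; a difference of at least 2-fold was called. Intervals of ratios are Clopper-Pearson, those of folds between 2 genes exact conditional (scipy 1.17.1), both at 95%. The text names all members, every gene of pathway lists of up to 10 genes except ligands without reads and a gene that is not reported here, from the longer list up to 4 genes at either end among those at least 2-fold apart, 5 genes of like level, and of each cell type list the 3 most abundant genes, of which a part is printed. Outside that rule, Cmpk2, Eif2ak2, Ifi35, Siglech, Itgax, Dpp4 and Cd86 were named after their values were seen. Steps were tested on simulated data. Alternatives were 2 pseudocounts, 2 filters, 4 scalings (edgeR 4.0.16 TMM, DESeq2 1.42.0 size factors and 2 common sums of RPKM), stricter calls and, chosen after seeing the data, leaving out members that share sequence. Both tools gave scaling factors only.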

Additional observations from a re-analysis of the deposited data

How the results depend on the processing

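No paired analysis was possible because each group holds 1 library, and for the same reason no library could be left out. At a threshold of 4-fold, 4 members were called in place of 9. Under every other setting run, between 7 and 9 members were at least 2-fold higher. The count was 7 with a pseudocount of 5 RPKM, where Ifit3 and Usp18 were no longer called, beside 469 of 11547 genes. It was 8 with edgeR's TMM factors, where Bst2 was not called, beside 963 of 11538 genes. Ifit3 and Herc6 have over 20% of their positions in other genes. Without them (chosen after seeing the data) it was 7 of 8, beside 1045 of 11547 genes. With a filter of 5 RPKM, 8 members were compared and all 8 called, beside 836 of 8576 genes. That filter dropped Ifit2, the uncalled member, and Ifit3. Ifit1, Usp18, Rsad2 and Mx2 passed it only through the mature library, where they are high, so this count is no independent support. The median log2 fold of the members lay between 1.12 and 1.76 over the pseudocounts, filters and scalings, and their mean was 1.61. The 4 scalings multiplied every ratio by between 0.974 and 1.08, and all 40 member ratios stayed within their counting intervals. Rescaling to a common sum without the 50 most abundant genes raised the median log2 fold of all genes by 0.104. The 2 common sums turned the order of directions over all genes, from 1045 higher and 1310 lower to 1181 and 1165, and to 1234 and 1123; for the members the direction was higher in each. Depth limits Ifit3 and Mx2 most, with 15 immature reads each.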
